A study of Homo sapiens with 20 samples.

Results

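The clustered protocadherin genes lie side by side on chromosome 5 as an alpha, a beta and a gamma cluster. All CTCF peaks, H3K4me3 regions and H3K27ac regions that touch the stretch from 140.15 to 140.91 Mb of chromosome 5 (hg19) were taken, together with the 53 protein-coding members, which are 15 alpha, 16 beta and 22 gamma genes of 19794 protein-coding genes annotated in all. All 53 are transcribed from the + strand. The window held 245 of 253038 CTCF peaks, which merged into 62 of 62820 CTCF sites, 168 of 186410 H3K4me3 regions and 29 of 351034 H3K27ac regions.

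Clustered protocadherins are cell adhesion molecules that bind copies of themselves on neighbouring cells, and they are best known from neurons, where each cell uses its own mixture of them. In the alpha and gamma clusters each member begins with its own variable exon and promoter, and the transcript is spliced to constant exons shared by the whole cluster, while beta members are single-exon genes. CTCF, a zinc-finger protein that binds DNA at insulators and at the anchors of chromatin loops, is known to bind a conserved element in most of these promoters and a second place inside the variable exons of the alpha cluster.

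Chromatin immunoprecipitation sequencing (ChIP-seq) was made from LNCaP, a prostate cancer cell line, and IMR90, a lung fibroblast cell line. Cells were transfected with 20 nM of a non-targeting siRNA pool (control) or of a CTCF siRNA pool, and were harvested at 144 h. By the labels cells were split and transfected again midway, and by the study's methods IMR90 cells received the siRNA with a transfection reagent of their own, so the transfection also differs between the lines. CTCF was profiled in LNCaP, in IMR90 with the standard protocol and in IMR90 with a low-cell protocol, and H3K4me3 and H3K27ac in LNCaP, with 2 libraries in each of 10 groups. Each cell line is a single line, and the study describes its standard ChIP libraries as biological and the low-cell ones only as duplicates, without naming separate cultures, so p-values measure the spread between these libraries. The smallest p-value that an exact permutation test of 2 libraries against 2 allows is 0.33. The amount of CTCF was not measured in these files. The study reported a larger loss of CTCF mRNA in LNCaP than in IMR90, and its part in the results below was not tested.

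Peak lists held 38018 and 46365 CTCF peaks in the LNCaP controls and 3732 and 7736 after CTCF siRNA, with 35719 and 36890 against 19180 and 18539 in IMR90 and 20383 and 19226 against 5193 and 2057 in IMR90 with the low-cell protocol. The files give no read counts, so no counting interval can be given. The depths listed with the study put CTCF siRNA replicate 1 of LNCaP far below the other LNCaP CTCF libraries, and its part in the results below was not tested. The LNCaP lists carried H3K4me3 and H3K27ac at the starts of the prostate markers KLK3, TMPRSS2, HOXB13, FOLH1 and STEAP2, and at 3 of 6 and 1 of 6 fibroblast markers respectively. No histone library of IMR90 was analysed, so its label has no such check.

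The sequence under the CTCF sites differed between alpha exons, promoters and other places. A peak's strength is given as its fold enrichment, the ratio of its reads to the local background as called by the authors, and a control site is a merged site with a peak in both control libraries of an experiment. The 7 LNCaP control sites inside alpha variable exons each held the 14-letter CTCF core consensus within 100 bp of the summit with at most 2 mismatches, always on the + strand. Of the 34 LNCaP control sites in promoters, 3 did, and of the 6 elsewhere, 4 did. For comparison, 74.0% of all LNCaP control sites and 3.8% of consecutive stretches of the window of the same length held it on either strand. The exon matches are shown because they are near copies of each other, with the consensus in capitals (hg19, + strand):
PCDHA4, chr5:140187229-140187242: ctcggtttCCACTAGAGGGCGCctcggatg
PCDHA5, chr5:140201814-140201827: cgcggtttCCGCTAGAGGGCGCgtcggatt
PCDHA8, chr5:140221363-140221376: ctcggtttCCGCTAGAGGGCGCgtccgatg
PCDHA11, chr5:140249145-140249158: cgcgttttCCACTAGAGGGAGCttctgatg

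Outside promoters and variable exons, the consensus was read without a mismatch at 3 sites, all on the − strand, and with 2 mismatches on the + strand at the start of TAF7. They are shown because the strongest sites of the window are among them, each written 5′ to 3′ on its own strand with the consensus in capitals:
between alpha and beta, chr5:140420955-140420968, − strand: ctcatctgCCACCAGGTGGCAGgtggatcc
TAF7 start, chr5:140699888-140699901, + strand: agtcccaaCCTCTAGGTGCCGCtgccggac
gamma constant region, chr5:140892068-140892081, − strand: ggctatggCCACTAGGGGGCGCactgggga
DIAPH1 intron, chr5:140904459-140904472, − strand: atgctcagCCAGCAGGTGGCGCtgggagca

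The promoter sites shared a shorter string, whose letters in part match the end of the consensus. The string GNCGCT, read off these promoters after they had been seen, was present on the + strand within 100 bp of the summit at 32 of 34 LNCaP control promoter sites (4 of 4 alpha, 10 of 11 beta and 18 of 19 gamma). On the + strand it was in 7.7% of consecutive stretches of the window of the same length and in 11.6% of all LNCaP control sites, and on either strand in 11.4% and 20.6%. The best alignment to the consensus, beyond the mismatch limit, overlapped the string at PCDHA3 (3 mismatches), PCDHB3 (4) and PCDHGA3 (4). At PCDHGA10 and PCDHGB5 that alignment lay elsewhere. The letters before GNCGCT differed between the clusters. Within 100 bp of the position 253 bp before the coding start, GATGTCGCT stood in 10 of 15 alpha members, GGTGGCGCT in 14 of 16 beta members and GCGCCGCT in 11 of 22 gamma members. Examples are given with GNCGCT in capitals (hg19, + strand), and at PCDHB9 it overlaps a match to the CTCF consensus with 1 mismatch:
PCDHA3, chr5:140180581-140180608: tagccacatgatGTCGCTgtccaccaca
PCDHA8, chr5:140220717-140220744: aagccacatgatGTCGCTgtctaccaag
PCDHB3, chr5:140479979-140480006: cgaacgcatggtGGCGCTgttgactaag
PCDHB7, chr5:140552149-140552176: aaaacgcaaggtGGCGCTgctggctaaa
PCDHB9, chr5:140566650-140566677: aagccacaaggtGGCGCTgcagactgaa
PCDHGA3, chr5:140723336-140723363: aggcctcttagtGTCGCTgttgaccact
PCDHGA10, chr5:140792500-140792527: aggactctgagcGCCGCTgttcacctac
PCDHGB5, chr5:140777432-140777459: ctgactctgggcGCCGCTgttggccaaa

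The string was also present in members without a CTCF peak. Of 53 members, 47 held it around that position, at 170 to 272 bp before the coding start, and 31 of these 47 had a LNCaP control site in the promoter. PCDHA9, PCDHAC2, PCDHB6, PCDHGA4, PCDHGB7 and PCDHGC5 did not hold it around that position, and PCDHB6, PCDHGA4 and PCDHGB7 had a LNCaP control site all the same. The PCDHGA4 summit lay 140 bp upstream of the coding start, outside the range searched here. Its best alignment to the consensus, 3 bp from the summit, ends in letters that match the start of the string. Around the summits, 18 of 19 gamma promoter sites held the string, against 17 of these 19 members in the search around that position.

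Promoter and alpha exon CTCF sites stood within limited ranges of distance from the coding starts. In LNCaP the summits of the 34 promoter sites lay 101 to 297 bp upstream of the start codon, with a median of 253 bp, and the medians were 165 bp in alpha, 252 bp in beta and 259 bp in gamma. The 7 alpha exon sites lay 427 to 460 bp into the coding sequence, with a median of 446 bp. By the annotation, 7 of the 47 LNCaP control summits fell in coding exons, 7 in UTRs, 5 in non-coding exons, 25 in introns and 3 between genes. Many of the introns are those of other transcripts that run through the cluster.

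**Figure D1:**
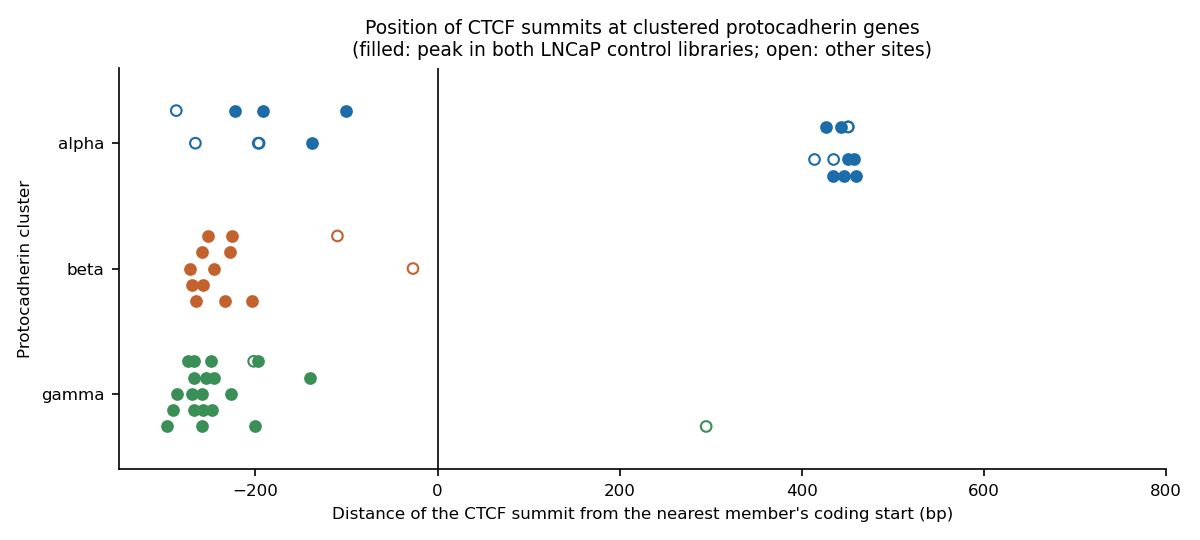
Distance of each CTCF summit from the coding start of the nearest member in bp, one point per site, by cluster, with filled points for peaks in both LNCaP control libraries. Filled points sit between 297 and 101 bp upstream in the 3 clusters and again between 427 and 460 bp downstream in alpha only, and sites beyond the plotted range in PCDHGA6 and PCDHGC3 are not drawn.

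LNCaP control cells carried CTCF over all 3 clusters. There were 51 and 57 peaks in the window and 47 control sites, of which 11 were in alpha, 1 between alpha and beta, 12 in beta, 2 between beta and gamma, 20 in gamma and 1 downstream of gamma. Of the 53 members, 37 had a start within 1000 bp of a LNCaP control site, against 10.3% of all protein-coding genes. Mean control fold enrichment of the 47 sites ran from 4.44 to 48.6 with a median of 9.71.

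In the alpha cluster PCDHA3, PCDHA4, PCDHA8 and PCDHA11 had control sites both in the promoter and in the exon. The exon site was the higher in both control libraries at 3 of these 4. At PCDHA8 fold enrichment was 12.98 and 19.67 in the exon and 6.22 and 9.45 in the promoter, and at PCDHA4 it was 12.3 and 17.6 against 7.09 and 5.40. At PCDHA3 the order differed between libraries, with 9.01 and 10.4 in the exon and 7.32 and 11.3 in the promoter. PCDHA2, PCDHA5 and PCDHA6 had a control site in the exon only, and the PCDHA5 exon was the highest of the cluster at 17.8 and 22.7. PCDHA9, PCDHA10, PCDHA12 and PCDHA13 had exon peaks in 1 LNCaP control library each. PCDHAC1, a C-type member, had a promoter peak of 17.5 in control replicate 1 and none in replicate 2.

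Some members share sequence. Reads that map to several places were discarded by the authors, who allowed 3 mismatches. Of the 152 possible 50-base stretches within 100 bp of the position 446 bp into the coding exon, all had a second place in the window within 3 mismatches at PCDHA7 and PCDHA9, and 65.8% at PCDHA4. PCDHA7 had no CTCF peak and held the consensus without a mismatch, and PCDHA9 had a peak of 6.07 in control replicate 2 alone. The part of shared sequence in these values was not tested. At the promoters the share was above 0 at 6 members, which were PCDHB8 (79.6%), PCDHB13 (80.3%), PCDHGB4 (77.0%), PCDHGB5 (75.0%), PCDHGB6 (40.8%) and PCDHGB7 (40.8%), and all 6 had LNCaP control sites.

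In the beta cluster 11 of 16 promoters had a LNCaP control site, from PCDHB2 to PCDHB10, with PCDHB16, and at PCDHB13. The PCDHB10 promoter was the highest at 16.4 and 19.3, followed by PCDHB3 at 12.1 and 11.0 and PCDHB7 at 8.27 and 12.5. PCDHB11 and PCDHB12 had peaks in control replicate 2 alone, and PCDHB1, PCDHB14 and PCDHB15 had none. The other site of the cluster lay between PCDHB1 and PCDHB2, at chr5:140463829-140464269, with 9.65 and 11.9.

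In the gamma cluster all 19 members of the A and B types (PCDHGA1 to PCDHGA12 and PCDHGB1 to PCDHGB7) had a LNCaP control site in the promoter. The highest were PCDHGB5 at 21.8 and 23.5, PCDHGA8 at 15.6 and 17.2 and PCDHGA10 at 11.2 and 20.4. None of the C-type members PCDHGC3, PCDHGC4 and PCDHGC5 had one. The lowest were PCDHGA5 at 4.21 and 4.67 and PCDHGB2 at 3.99 and 8.41. In the whole window 8 members had no CTCF peak in promoter or exon in any of 12 libraries, which were PCDHA1, PCDHA7, PCDHAC2, PCDHB1, PCDHB14, PCDHB15, PCDHGC4 and PCDHGC5.

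The strongest and second strongest control sites of the window were not in member promoters in either line, while the third in LNCaP was the PCDHGB5 promoter. The site in an intron of DIAPH1, a formin gene that follows the gamma cluster on the opposite strand, at chr5:140904138-140904908, had fold enrichments of 44.9 and 52.3 in LNCaP controls, 38.6 and 34.6 in IMR90 controls and 9.20 and 15.3 in low-cell controls. The site at chr5:140891676-140892529, in the annotated UTR at the end of the gamma constant region, had 23.1 and 33.2, 21.1 and 16.7, and 15.2 and 19.1. At the start of TAF7, which encodes a subunit of the general transcription factor TFIID, the site at chr5:140699603-140700200 had 12.9 and 11.0 in LNCaP and 24.2 and 30.4 in IMR90 controls. Between TAF7 and PCDHGA1 a further site at chr5:140705541-140706089 had 7.49 and 7.36 in LNCaP and 13.7 and 12.1 in IMR90. Both sites between beta and gamma were higher in both IMR90 libraries than in both LNCaP libraries, though fold enrichments are not scaled between libraries.

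**Figure D2:**
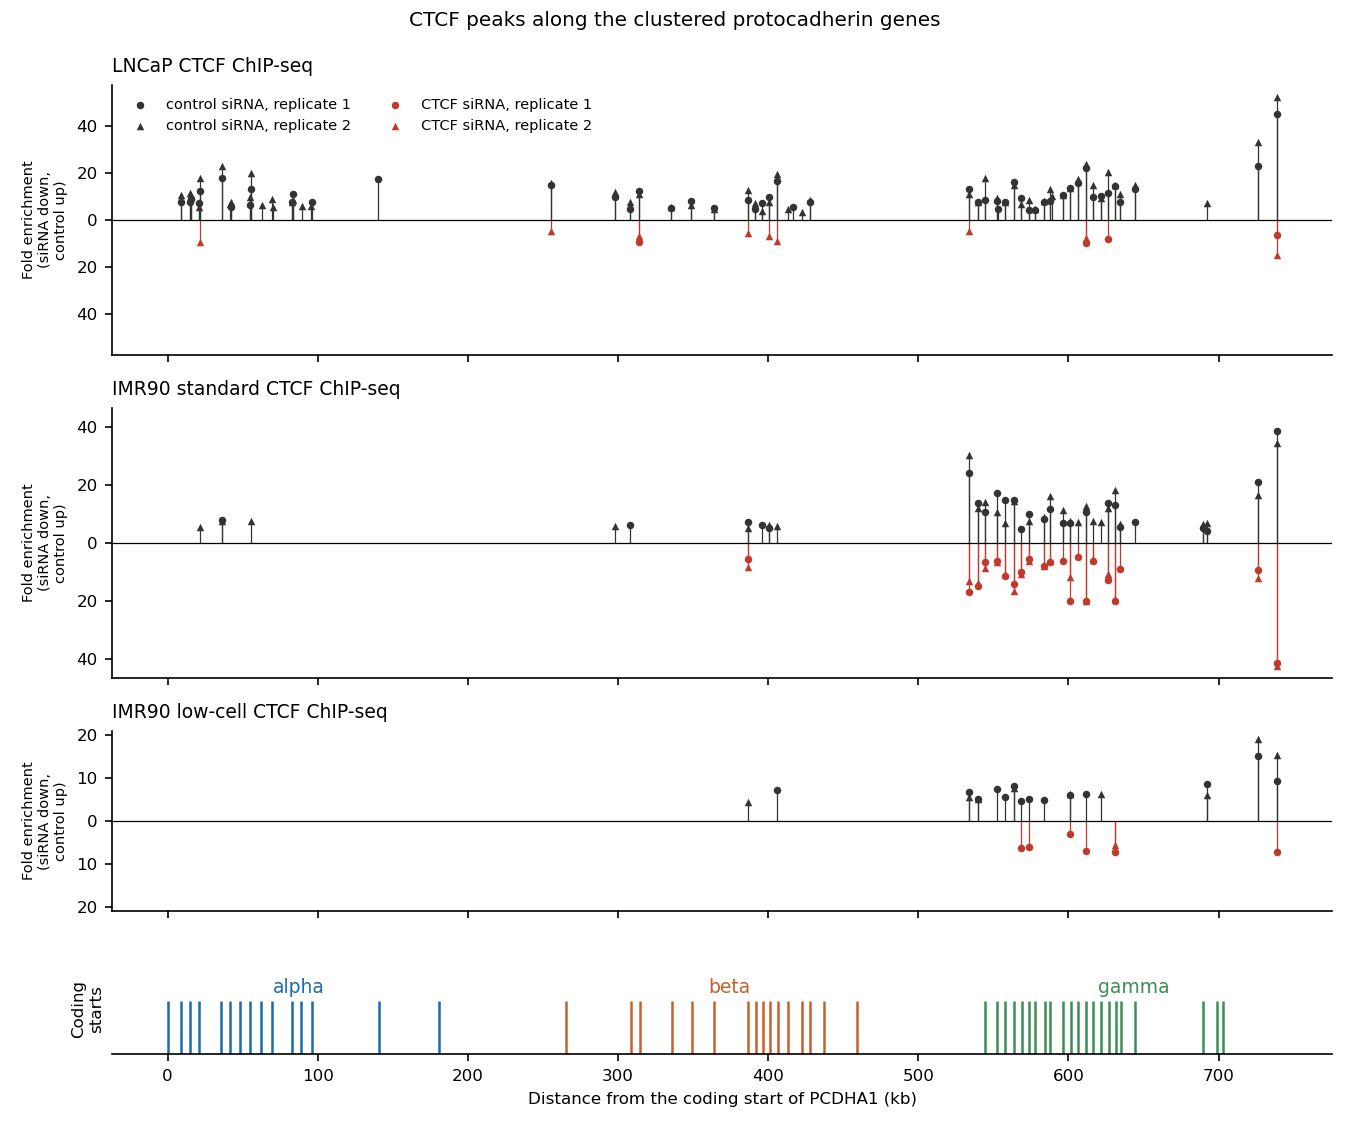
Fold enrichment of each CTCF peak against distance from the coding start of PCDHA1 in kb, for LNCaP, IMR90 and low-cell IMR90, with control libraries drawn upwards, CTCF siRNA libraries downwards, circles for replicate 1 and triangles for replicate 2, and the members' coding starts below. LNCaP control peaks span all 3 clusters, IMR90 peaks lie mostly over gamma, and after CTCF siRNA the LNCaP lists keep 4 and 9 peaks and the IMR90 lists 21 and 18.

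IMR90 control cells carried CTCF mainly over gamma. The window held 26 and 29 peaks and 22 control sites, of which 1 was in alpha, 2 in beta, 2 between beta and gamma, 16 in gamma and 1 downstream. Of the 53 members, 17 had a start within 1000 bp of an IMR90 control site, against 10.1% of all genes. The alpha site was the PCDHA5 exon, with 7.90 and 7.74. PCDHA4 and PCDHA8 had exon peaks of 5.36 and 7.74 in control replicate 2 alone. The beta sites were the promoters of PCDHB7, with 7.15 and 5.28, and PCDHB9, with 5.11 and 6.09. In gamma, 13 of 19 A-type and B-type promoters had a control site and 18 of 19 had a peak in at least 1 control library, PCDHGA5 being the exception. The promoter of PCDHGC3 had a control site in IMR90, with 5.27 and 6.55, and no LNCaP peak.

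Of the 47 LNCaP control sites, 20 were also IMR90 control sites, against 72.5% of all LNCaP control sites. A further 11 had a peak in 1 IMR90 control library or in the low-cell controls, and 16 had no peak in any of the 4 IMR90 control libraries, against 18.2% of all LNCaP control sites. These 16 were 8 of the 11 alpha sites, the site between alpha and beta, 6 of the 12 beta sites and 1 of the 20 gamma sites (PCDHGA5). The site between alpha and beta, at chr5:140420788-140421100, at -10091 bp from the coding start of PCDHB1, was the highest of them at 14.7 and 15.6, and no IMR90 library listed a peak there. Next were the PCDHB3 promoter at 12.1 and 11.0 and the PCDHA11 exon at 10.9 and 8.56. In the other direction 1 of 22 IMR90 control sites, the PCDHGC3 promoter, had no LNCaP control peak, against 11.8% of all IMR90 control sites. Without LNCaP control replicate 1 the LNCaP sites without an IMR90 control peak were 25, and without LNCaP control replicate 2 the IMR90 sites without a LNCaP control peak were 2. Cell line and experiment cannot be told apart here, and the call rests on peaks passing a threshold.

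The low-cell protocol, run on IMR90, listed 14 and 9 control peaks and 7 control sites, and 2 of 53 members had a start within 1000 bp of one, against 7.1% of all genes. These were both sites between beta and gamma, the promoters of PCDHGB1 (8.07 and 7.65) and PCDHGB4 (6.11 and 6.39), the PCDHGC3 coding exon at chr5:140857870-140858297 (8.54 and 5.96), the gamma constant region and DIAPH1. Without control replicate 2 there were 14 control sites. No alpha site had a peak in a low-cell library. TAF7 had 6.85 and 5.67 and the site between TAF7 and PCDHGA1 had 5.14 and 5.15. Low-cell control replicate 1 alone also listed the promoters of PCDHGA2 (7.52), PCDHGA3 (5.7), PCDHGA4 (4.65), PCDHGB2 (5.22), PCDHGB3 (4.79), PCDHGB5 (6.17) and PCDHB10 (7.12), and replicate 2 alone those of PCDHGB6 (6.39) and PCDHB7 (4.49).

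After CTCF siRNA the number of LNCaP peaks in the window went from 54.0 ± 4.24 to 6.5 ± 3.54 (SD, n = 2; exact permutation test, two-sided p = 0.33, the smallest possible). The groups did not overlap, but with lists of equal length the window held 1.5 peaks more after CTCF siRNA. Of the 47 control sites, 3 were persistent, meaning a peak in both CTCF siRNA libraries, against 9.29% of all LNCaP control sites and 9.13% of those within the window's range of fold enrichment. Without CTCF siRNA replicate 1, the shallow library, 9 were persistent, by a looser rule for which no share of all sites was computed. A further 7 had a peak in 1 CTCF siRNA library and 37 in neither, and no site was gained, against 0.0796% of all merged sites. Strong sites were kept more often in the whole genome, so the share was read within classes of mean control fold enrichment. Below 10, 0 of 25 window sites were persistent against 1.21% in the genome, from 10 to below 20 it was 1 of 18 against 6.19%, and from 20 it was 2 of 4 against 28.0%.

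The 3 persistent LNCaP sites were 1 in each of 3 places. The PCDHB3 promoter had fold enrichments of 12.1 and 11.0 in controls and 9.69 and 7.01 after CTCF siRNA, and no peak in any IMR90 library. The PCDHGB5 promoter had 21.8 and 23.5 in controls and 9.97 and 7.85 after CTCF siRNA. The DIAPH1 site had 44.9 and 52.3 in controls and 6.31 and 15.1 after CTCF siRNA. At these 3 sites both CTCF siRNA values were below both control values, as at 77.4% of all persistent LNCaP sites. The mean after CTCF siRNA over the mean in controls was 0.724, 0.393 and 0.221, and 1.7% of persistent LNCaP sites had a lower ratio than the DIAPH1 site.

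Among lost sites, those with a peak left in 1 CTCF siRNA library were the PCDHA4 exon (9.65 in replicate 2), the site between alpha and beta (4.84 in replicate 2), the promoters of PCDHB7, PCDHB9 and PCDHB10 (5.72, 6.72 and 9.16 in replicate 2), the TAF7 start (5.01 in replicate 2) and the PCDHGA10 promoter (8.08 in replicate 1). Replicate 2 had the longer list and held 6 of the 7. The gamma constant region, the second strongest site of the LNCaP controls, was listed in neither library. Neither listed 18 of 20 gamma sites or 8 of 12 beta sites.

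In IMR90 the number of window peaks went from 27.5 ± 2.12 to 19.5 ± 2.12 (SD, n = 2; exact permutation test, two-sided p = 0.33), again without overlap. The lists after CTCF siRNA were also shorter, and with lists of equal length the window held 8.5 peaks more after CTCF siRNA. Of the 22 control sites 16 were persistent, against 51.4% of all IMR90 control sites and 51.7% of those within the window's range of fold enrichment. No site was gained, against 0.202% of all merged sites. By class of mean control fold enrichment, 4 of 10 sites below 10 were persistent against 11.9%, 10 of 10 from 10 to below 20 against 57.3%, and 2 of 2 from 20 against 95.9%. The persistent sites were the PCDHB7 promoter, both sites between beta and gamma, 11 gamma promoters, the gamma constant region and DIAPH1. Lost sites were the PCDHA5 exon, the PCDHB9 promoter and both PCDHGC3 sites, without a peak in either library, and the promoters of PCDHGA7 and PCDHGA11, with a peak of 6.41 and of 9.09 in replicate 1.

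The values at the 16 persistent IMR90 sites went in both directions. Both CTCF siRNA values were below both control values at 7 sites and above them at 5, and the median ratio of the means was 0.975. Over all persistent IMR90 sites, 57.3% were below and 12.2% above, with a median ratio of 0.727. These values were not read within classes of control fold enrichment, and a weak site is persistent only if its peak still passed the threshold. The PCDHGB4 promoter had 6.85 and 7.74 in controls and 20.1 and 11.7 after CTCF siRNA, a ratio of 2.18 with 99.4% of persistent sites below it. The PCDHGB5 promoter had 10.53 and 12.7 against 20.1 and 20.2, and PCDHGB7 had 13.2 and 18.5 against 20.1 and 19.5. These 3 promoters are among the 6 that share 50-base stretches with another place in the window, at 77.0%, 75.0% and 40.8%. The other sites above control were the site between TAF7 and PCDHGA1 (13.7 and 12.1 against 14.8 and 13.8) and DIAPH1 (38.6 and 34.6 against 41.6 and 42.5).

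Of the sites below control, the TAF7 start had 24.2 and 30.4 against 17.1 and 13.01. The PCDHGA2 promoter had 17.3 and 10.7 against 6.41 and 6.5, the lowest ratio of the 16 at 0.461. PCDHGA6 had 11.6 and 16.1 against 6.69 and 6.38, PCDHGA1 had 10.6 and 14.3 against 6.47 and 8.78, and the gamma constant region had 21.1 and 16.7 against 9.26 and 11.98. PCDHGB2 had 10.0 and 7.74 against 5.70 and 6.38, and PCDHGB3 had 8.43 and 8.93 against 8.13 and 7.97. The groups overlapped at the 4 others, which were PCDHB7 (7.15 and 5.28 against 5.74 and 8.50), PCDHGA3 (14.7 and 6.91 against 11.5 and 10.6), PCDHGB1 (14.7 and 14.4 against 14.1 and 16.8) and PCDHGA10 (13.7 and 11.9 against 12.9 and 10.9). PCDHGA4 and PCDHGA9 had peaks in both CTCF siRNA libraries but in 1 control library only, PCDHGA4 with 4.76 in control replicate 1 against 10.0 and 10.6, and PCDHGA9 with 7.51 in control replicate 2 against 6.41 and 5.69.

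**Figure D3:**
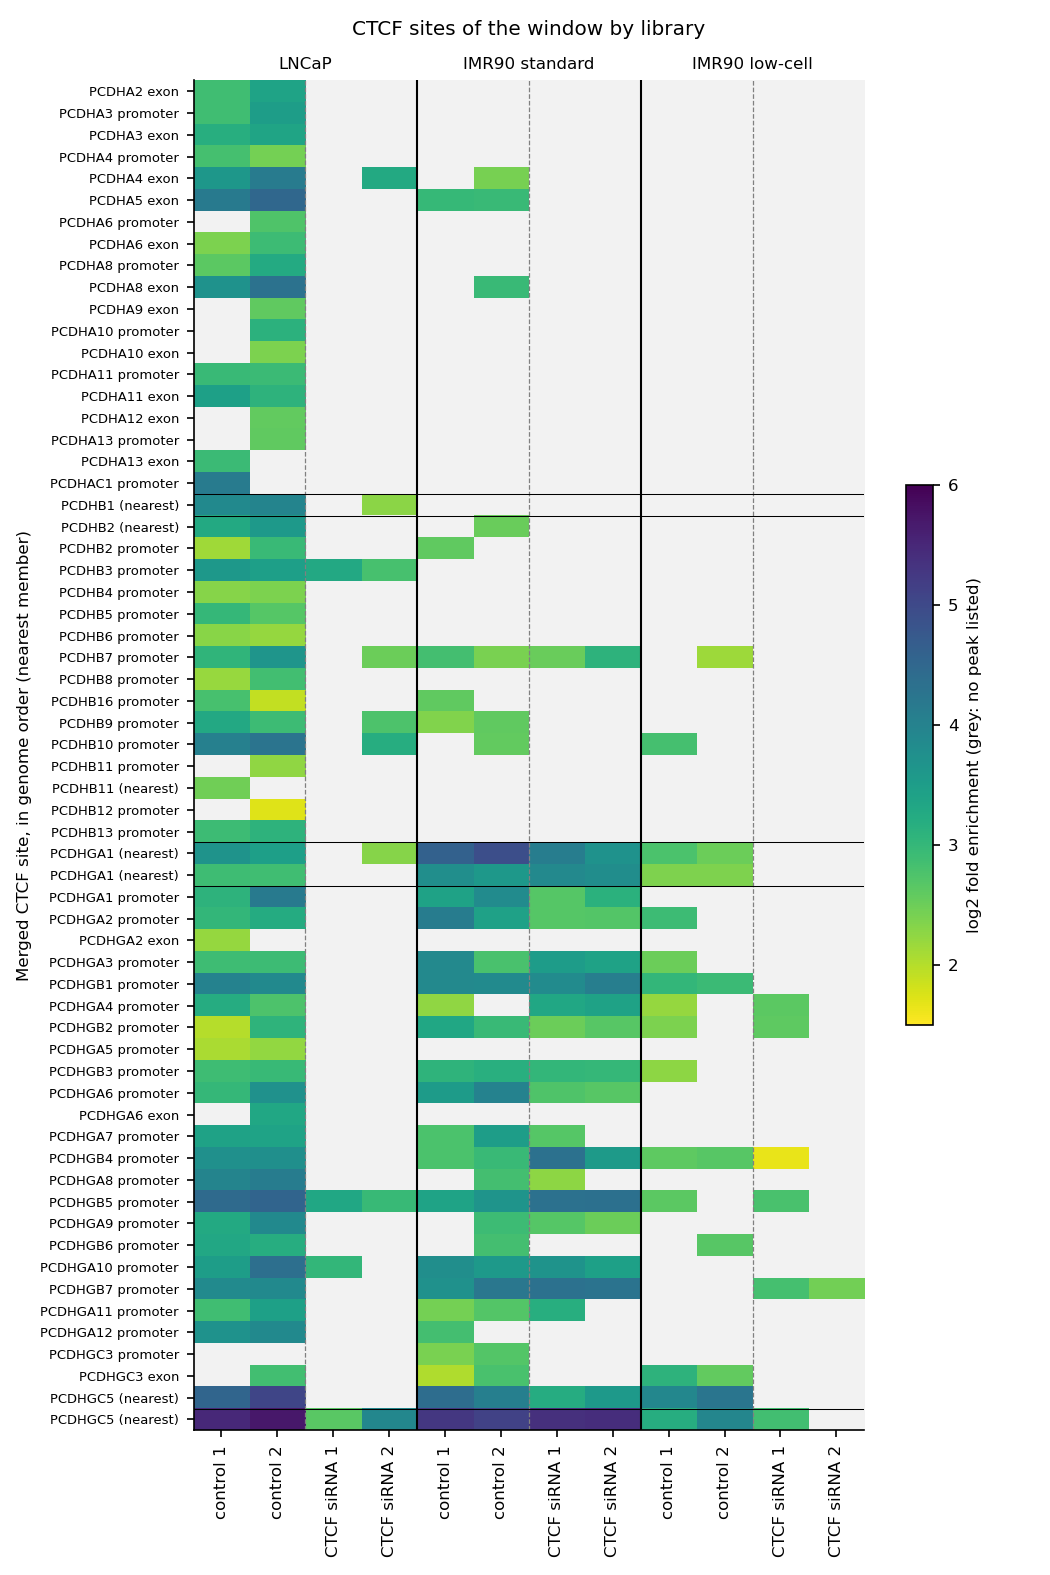
Merged CTCF sites of the window in genome order (rows) by library (columns), with colour for log2 fold enrichment and grey where no peak was listed. Of the 16 persistent IMR90 sites 12 lie in the gamma rows, where LNCaP keeps 1, and alpha rows are filled almost only in LNCaP controls.

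In LNCaP controls all 11 gamma promoters persistent in IMR90 were control sites, with 8.56 and 17.75 at PCDHGA1, 8.07 and 9.38 at PCDHGA2, 7.42 and 7.55 at PCDHGA3 and 7.99 and 13.25 at PCDHGA6. In the B type the LNCaP control values were 15.98 and 14.55 at PCDHGB1, 7.49 and 7.86 at PCDHGB3, 13.32 and 13.55 at PCDHGB4 and 14.38 and 14.62 at PCDHGB7. PCDHGB2, PCDHGB5 and PCDHGA10 are given above. After CTCF siRNA a LNCaP peak was left at PCDHGB5 in both libraries and at PCDHGA10 in 1 library, and at none of the others. PCDHGA4 and PCDHGA9, which were not IMR90 control sites, had 9.28 and 6.8 and 9.59 and 14.62 in LNCaP controls and no LNCaP peak after CTCF siRNA.

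The same sites had different fates in the experiments. Of the 20 sites that were control sites in LNCaP and IMR90, 16 were persistent in IMR90 and 2 in LNCaP (PCDHGB5 and DIAPH1), and 14 were persistent in IMR90 and lost in LNCaP. Lists after CTCF siRNA were also shorter in LNCaP in the whole genome, and these shares stand beside 51.4% and 9.29% of all control sites. The loss of CTCF mRNA that the study reported was also larger in LNCaP. The low-cell protocol in IMR90 went from 11.5 ± 3.54 to 3.5 ± 3.54 peaks (SD, n = 2; exact permutation test, two-sided p = 0.33), and 0 of 7 control sites were persistent, against 10.8% of all low-cell control sites and 9.39% of those within the window's range. By class, it was 0 of 5 below 10 against 4.66% and 0 of 2 from 10 to below 20 against 19.2%, and no window site reached 20, where 51.6% were persistent in the genome. Without CTCF siRNA replicate 2, 2 of the 7 were persistent, again by a looser rule without a share of all sites. In CTCF siRNA replicate 1 alone, DIAPH1 (7.24), PCDHGB4 (3.12), PCDHGA4 (6.21), PCDHGB2 (6.13) and PCDHGB5 (6.89) had a peak. The PCDHGB7 promoter had peaks of 7.14 and 5.48 after CTCF siRNA and none in a low-cell control, which makes it 1 of 9 such sites in the genome (0.0143% of all merged sites), although IMR90 controls of the standard protocol listed it.

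As a share of the full peak lists, the window's peaks moved in opposite directions. Per 1000 peaks of the list, LNCaP had 1.34 and 1.23 window peaks in controls and 1.07 and 1.16 after CTCF siRNA, and IMR90 had 0.728 and 0.786 against 1.095 and 0.971. In LNCaP the values after CTCF siRNA rest on only 4 and 9 window peaks. The low-cell lists overlapped, with 0.690 and 0.470 against 1.17 and 0.495. With lists of equal length, keeping the peaks of lowest p-value, the window held 1.5 peaks more after CTCF siRNA in LNCaP and 8.5 more in IMR90, so the opposite directions did not hold there.

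**Figure D4:**
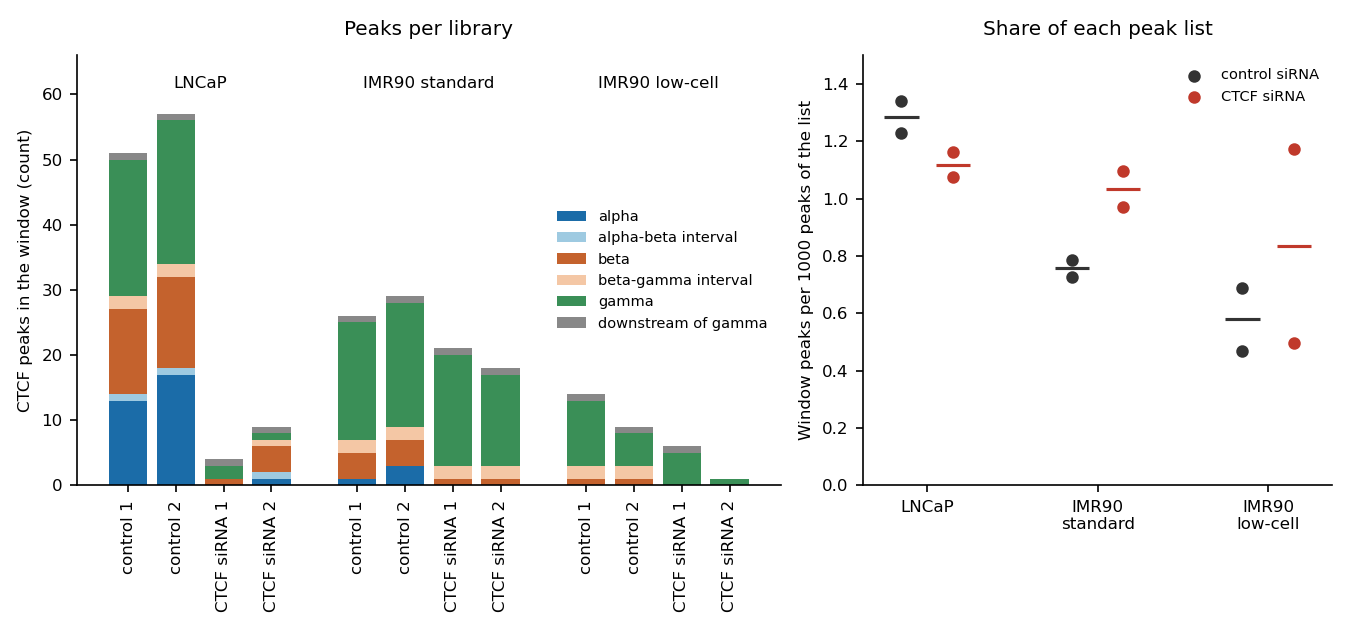
CTCF peaks of the window per library, stacked by cluster (left), and the same peaks per 1000 peaks of the library's list, with points for libraries and a line for their mean (right). Counts are lower after CTCF siRNA in the 3 experiments, and the share of the list is lower in LNCaP and higher in standard IMR90.

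H3K4me3, a mark of active and poised promoters, was listed at many protocadherin promoters of LNCaP, at a share near that of all genes. A start site within 1000 bp of a region in at least 2 of 4 libraries was found for 32 of 53 members (5 of 15 alpha, 9 of 16 beta and 18 of 22 gamma), against 66.6% of all protein-coding genes. It was present in all 4 libraries at 19 members, against 63.3% of all genes, and in none at 14. The regions were narrow. Among starts marked in both control libraries, mean width had a median of 1375 bp over 31 members and of 3050 bp over 12624 genes.

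CTCF and H3K4me3 overlapped in part. Of the 34 members with a LNCaP control site in the promoter, 24 carried H3K4me3 and 10 did not, and of the 19 others 8 did and 11 did not. Over all protein-coding genes, with or without CTCF, the share was 66.6%. The 10 with CTCF alone were PCDHA8, PCDHA11, PCDHB6, PCDHB7, PCDHB8, PCDHB9, PCDHB10, PCDHB16, PCDHGB6 and PCDHGB7, so a block from PCDHB6 to PCDHB10 had CTCF at each promoter and no H3K4me3 in any library. The 8 with H3K4me3 alone included PCDHAC1, PCDHAC2, PCDHB1 and PCDHGC3, marked in all 4 libraries, and PCDHB14 and PCDHB15, in 3. In both lists alone means that the other feature was not in 2 libraries. PCDHAC1 and PCDHB11 had a promoter CTCF peak in 1 LNCaP control, and PCDHA8, PCDHA11 and PCDHGB7 had H3K4me3 in 1 library. CTCF summits lay inside such a region at 17 of 19 gamma promoter sites, 5 of 11 beta and 2 of 4 alpha promoter sites and 2 of 7 alpha exon sites, and at 29 of all 47 control sites, against 16.7% of LNCaP control sites in the genome. Most of the 47, namely 34, are promoter sites, while the genome's sites lie at any place. The last 2 shares are therefore not of like sites, and a share over promoter sites of the genome was not computed.

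Fewer member starts carried H3K4me3 after CTCF siRNA. It was listed at 34 and 34 members in controls and at 21 and 28 after CTCF siRNA (34 ± 0 against 24.5 ± 4.95, SD, n = 2; exact permutation test, two-sided p = 0.33). The groups did not overlap, while the share of all genes with the mark was 64.2% and 65.9% against 65.5% and 68.8%. Of 31 members marked in both controls, 19 were marked in both CTCF siRNA libraries, 8 in 1 and 4 in neither. PCDHA3 is among the 19 by the distance rule. In CTCF siRNA replicate 2 its region, chr5:140181551-140182500, lay downstream of the start and apart from the region of the other libraries. Of all genes marked in both controls, 0.776% were marked in fewer than 2 CTCF siRNA libraries and 0.119% in neither. The 4 were PCDHB4, PCDHB11, PCDHB13 and PCDHGA3, and the 8 were PCDHA1, PCDHA4, PCDHB14, PCDHB15, PCDHGA2, PCDHGA6, PCDHGB3 and PCDHGB4. No member marked in neither control was marked in both CTCF siRNA libraries, against 2.44% of such genes.

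Narrow regions were lost more often everywhere. With a mean control width below 1000 bp, 4 of 4 members were marked in fewer than 2 CTCF siRNA libraries against 19.1% of all genes, from 1000 to below 1500 bp it was 5 of 15 against 5.88%, and from 1500 bp it was 3 of 12 against 0.111%. Members with and without CTCF at the promoter both went down, from 25 and 25 to 16 and 20 of 34 with a control site, and from 9 and 9 to 5 and 8 of 19 without. CTCF siRNA replicate 1 held the lower value in each case. H3K4me3 regions in the window numbered 47 and 44 in controls and 29 and 48 after CTCF siRNA (45.5 ± 2.12 against 38.5 ± 13.4, SD, n = 2; exact permutation test, two-sided p = 1.0), and these groups overlapped. Without CTCF siRNA replicate 1 the difference had the other sign, 2.5 regions more after CTCF siRNA.

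The H3K4me3 regions merged to 41 that were present in at least 2 libraries, of which 22 were in all 4, against 58.9% in the genome. In both controls and neither CTCF siRNA library there were 5, against 2.55%, at PCDHB4, PCDHB11, PCDHB13, PCDHGA3 and chr5:140613551-140614750, which is away from member starts. In both CTCF siRNA libraries and neither control there was 1, at chr5:140713601-140714800 inside the gamma cluster, against 6.44%. The longest of the 22 lay at TAF7, chr5:140697801-140701550, and PCDHGA12, chr5:140809601-140812900.

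H3K27ac marks active promoters and enhancers, and few members carried it. It was listed in at least 2 libraries at 1 of 53 starts, PCDHGC3, against 58.2% of all genes, and there it was in all 4, as at 52.1% of all genes. PCDHB8 and PCDHGB1 had it in control replicate 1 alone. The window held 8 and 5 regions in controls and 5 and 11 after CTCF siRNA (6.5 ± 2.12 against 8.0 ± 4.24, SD, n = 2; exact permutation test, two-sided p = 1.0). The regions merged to 7 present in at least 2 libraries, and the 3 in all 4, against 56.9% in the genome, lay at the TAF7 start (chr5:140699101-140701300), PCDHGC3 (chr5:140854601-140856700) and DIAPH1 (chr5:140907051-140910300, which runs past the window's end). In both CTCF siRNA libraries and neither control there were 2, at chr5:140383201-140384400 in the alpha constant region and at chr5:140899601-140902100 in DIAPH1, against 13.2% in the genome, and none was in both controls alone, against 1.85%. The other 2 were each listed by 1 control library and by CTCF siRNA replicate 2, at chr5:140892951-140895400 and at chr5:140903401-140905400, over the CTCF site in DIAPH1. Of the 47 LNCaP control sites 2 had a summit inside an H3K27ac region, at TAF7 and at DIAPH1, against 22.1% of LNCaP control sites in the genome, and none of the 34 promoter sites did.

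**Figure D5:**
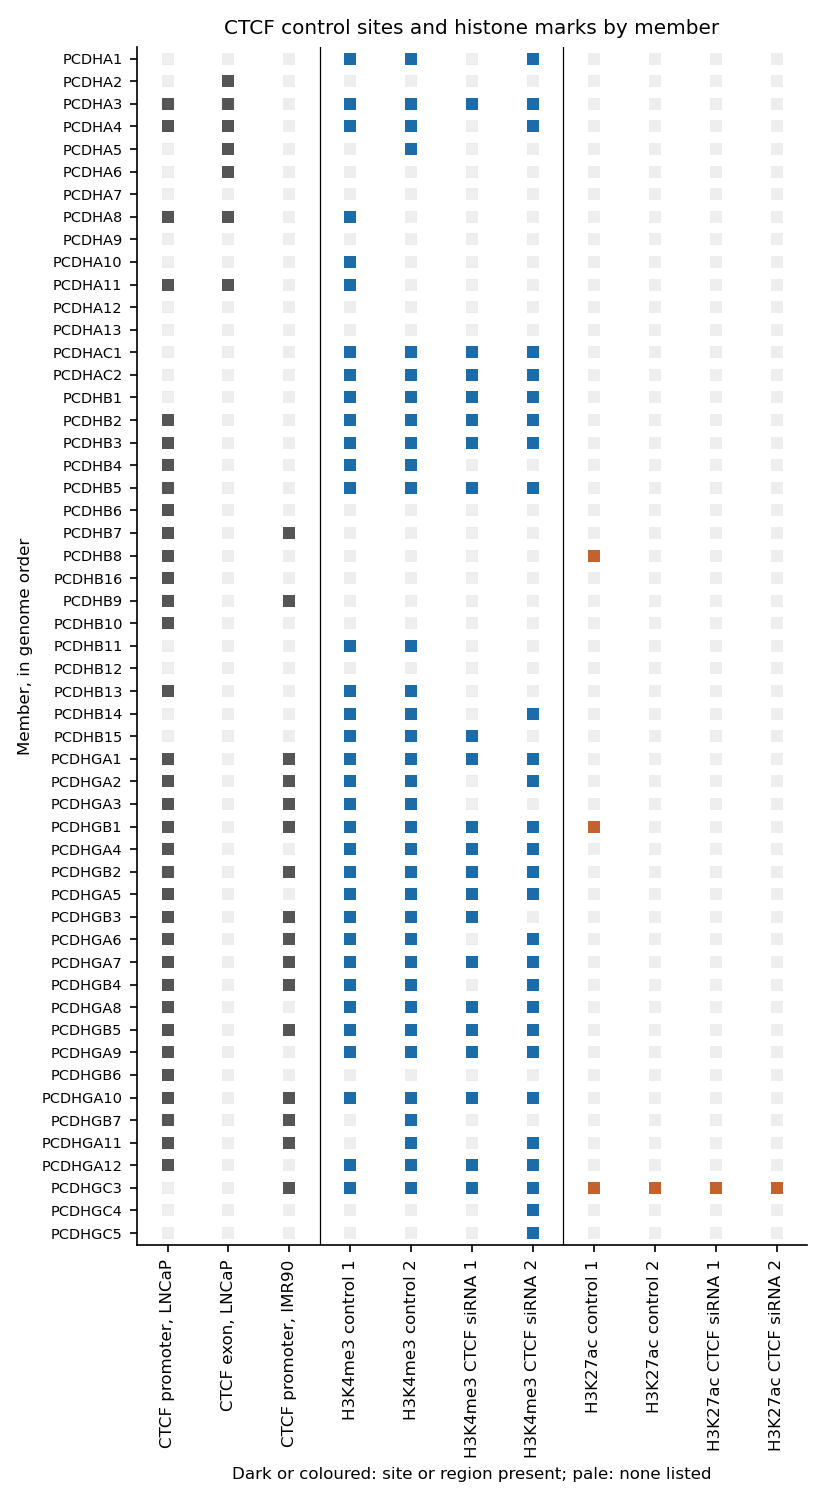
Members in genome order (rows) with CTCF control sites in promoter and exon (grey), H3K4me3 (blue) and H3K27ac (orange) per LNCaP library at the start site, pale squares where none was listed. H3K4me3 is listed at 34 and 34 members in controls and 21 and 28 after CTCF siRNA, and H3K27ac in all 4 libraries at PCDHGC3 alone.

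Of 11 protocadherin genes outside the clusters 9 carried H3K4me3 in at least 2 LNCaP libraries, PCDH10 and PCDH12 being without it, and 1 (PCDH1) carried H3K27ac. Over all protein-coding genes the shares were 66.6% for H3K4me3 and 58.2% for H3K27ac. PCDH1 alone had a LNCaP control CTCF site within 1000 bp of its start, against 10.3% of all genes, and PCDH1 and PCDH18 had an IMR90 one, against 10.1%. At their annotated starts, the neighbouring genes TAF7 and DIAPH1 carried both marks in all 4 libraries, and SLC25A2, a mitochondrial carrier gene, carried neither. No H3K4me3 region of the window lay downstream of gamma, so the H3K4me3 of DIAPH1 lies outside the window.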

How the data were processed

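Peak lists of 12 CTCF and 8 histone ChIP-seq libraries were used. Reads of the standard CTCF libraries were mapped by the authors with Bowtie (hg19), who allowed up to 3 mismatches, discarded reads with several positions and duplicates, and called peaks with MACS2. For low-cell libraries the authors trimmed adapters with cutadapt, aligned with BWA, removed duplicates by molecular identifier and called peaks with MACS2. In these deposited lists the authors give fold enrichment as a ratio to local background, not scaled between libraries, and the p-value and q-value of each peak as −log10. Histone lists come from PeakRanger, as run by the authors, and carry a deposited score whose meaning is not given in the sources used here. All lists were made per library, so a lost peak is a peak below a threshold and a weaker peak can be lost with less change in binding. The labels of the standard IMR90 libraries repeat the LNCaP culture and transfection text, and their cell line was taken from title and source.

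Peaks of the autosomes and sex chromosomes were merged at an overlap of at least 1 bp over the 12 CTCF libraries, and histone regions over the 4 libraries of a mark. A promoter site lies within 1000 bp upstream of the coding start of the canonical GENCODE transcript (release 44 lifted to GRCh37, the assembly of hg19, whose chromosome lengths hold every listed peak). Sequences come from the same GRCh37 genome. The CTCF core consensus of 14 letters was searched on both strands with up to 2 mismatches. Per-library counts were compared with an exact permutation test (SciPy 1.17.1), two-sided. The alternatives tried were stricter q-values, summits within 100 bp, merging per experiment, either library, lists of equal length, other distances, a replicate block and leaving out each replicate. Scripts ran on Python with pandas 2.3.3 and NumPy 2.4.6 and were tested on simulated data.

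Members, gene lists and site classes were chosen with earlier results of these data known. The sites given with values in every library are those listed by both CTCF siRNA libraries of any experiment, the 3 highest control sites of each cell line, the 3 highest without a peak in the other line, and the site between alpha and beta. Values of further sites were added after they were seen. A further marker gene of the prostate list is not reported here.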

Additional observations from a re-analysis of the deposited data

Results flagged for a closer look

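The share of peaks that fell in the protocadherin window moved in opposite directions after CTCF siRNA in the cell lines when full lists were used, and not with lists of equal length, where the window held 1.5 peaks more after CTCF siRNA in LNCaP and 8.5 more in IMR90. Per 1000 peaks of the list it fell by 0.166 in LNCaP (mean of CTCF siRNA minus mean of control), with both CTCF siRNA libraries below both controls, and it was 0.276 higher in IMR90 with the standard protocol, with both CTCF siRNA libraries above both controls. The LNCaP values after CTCF siRNA rest on 4 and 9 window peaks, so their order against the controls hangs on single peaks. The difference between the cell lines was not tested. Groups of 2 libraries are too small for a check of single outlying libraries.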

How the results depend on the processing

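Of 133 alternative values for 16 results, 110 did not reverse their direction or, for counts of sites, stayed within 1.5 times. A difference of 0, as for H3K27ac regions with lists of equal length, was counted as not reversed. With lists of equal length (3724 LNCaP, 18539 IMR90 and 2021 low-cell peaks), CTCF siRNA minus control became 1.5 window peaks in LNCaP and 8.5 in IMR90. Control sites became 1 in LNCaP, 9 in IMR90 and 0 in low-cell IMR90, persistent sites 1 and 9 in LNCaP and IMR90, and LNCaP-only sites 6 (19153 peaks). Per 1000 peaks, a choice added after seeing the data, the difference was 0.276 in IMR90 and 0.254 in low-cell IMR90. With a peak in either library, persistent sites were 10 in LNCaP and 5 in low-cell IMR90, low-cell control sites 16, shared sites 32 and LNCaP-only sites 29. H3K4me3 in all 4 libraries was at 19 members.

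Leaving out each library gave -50.5 to -44.5 peaks in LNCaP, -9.5 to -6.5 in IMR90, -10.5 to -5.5 in low-cell IMR90, -16.5 to 2.5 H3K4me3 regions (2.5 without CTCF siRNA replicate 1) and -1.5 to 4.5 H3K27ac regions (-1.5 without CTCF siRNA replicate 2). Site counts ran from 51 to 57, 26 to 29 and 9 to 14 for control sites, 3 to 9, 16 to 18 and 0 to 2 for persistent sites, 20 to 27 shared, 16 to 25 in LNCaP only and 1 to 2 in IMR90 only, and promoters from 27 to 32 with H3K4me3 and 1 with H3K27ac. The highest counts came without LNCaP CTCF siRNA replicate 1 (9 persistent), without LNCaP control replicate 1 (25), without LNCaP control replicate 2 (2 in IMR90 only), and without low-cell control replicate 2 (14) or CTCF siRNA replicate 2 (2). Leaving out a library leaves 1 in its group, so a site needs a peak in that library only. By this looser rule the site counts can only stay or rise. Why these libraries gave the highest counts was not tested. With the replicate block the differences were -47.5, -8.0 and -8.0 CTCF peaks (p = 0.5 each by exact permutation, the smallest possible), -7.0 and 1.5 regions. In their titles same-numbered libraries share only a number, and whether they were paired is not known. Their replicate differences correlated at 0.295, -0.011 and 0.062 over persistent sites of LNCaP, IMR90 and low-cell IMR90.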
